A study of Homo sapiens with 6 samples.

Results

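The genes described here are the ligands, receptors, SMADs, inhibitors and targets of the TGF-beta/activin, BMP and Notch pathways, 55 genes named one by one from general knowledge of these pathways, of 19775 genes with a probe set of their own on the array. The choice was made with earlier results of these data known. The 55 genes fall into 23 TGF-beta/activin, 18 BMP and 14 Notch genes. The data are 6 Affymetrix HG U133 Plus 2.0 arrays, of which 3 carried RNA from the parental Caco2 line and 3 RNA from its derivative that grows in 10 µM methotrexate (MTX), an antifolate that starves cells of thymidylate and purines. Caco2 is an established human colon cancer line that can take on features of absorptive enterocytes. The parental cells, which are sensitive to MTX, were kept in Ham's F12 medium. The resistant cells had been selected stepwise with MTX and were kept with dialyzed serum in a medium free of glycine, hypoxanthine and thymidine, so that drug resistance and medium cannot be told apart. The question was whether these pathways differed between sensitive and resistant cells. No age, transgene or other treatment applies to the groups, and both derive from the same line.

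TGF-beta and activin ligands join a pair of receptor kinases, whose signal is carried to the nucleus by SMAD2 and SMAD3, while BMP ligands use SMAD1 and SMAD5. SMAD4 partners with both sets, and SMAD6 and SMAD7 feed back to block the receptors. Notch is a receptor cleaved when a neighbouring cell presents a Delta or Jagged ligand, and its freed inner part switches on HES and HEY genes together with the DNA-binding factor RBPJ and a Mastermind coactivator. In the gut, TGF-beta restrains epithelial growth, BMP accompanies differentiation, and Notch favours absorptive over secretory cells by keeping ATOH1 low.

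Each value is the signal of a gene's brightest probe set divided by the median signal of its array, called the level below. A level is comparable between arrays for a given gene but not between genes. Changes are log2 differences, resistant minus parental, given ± SE from 3 arrays a group, and adjusted p-values are from limma over 26563 tested probe sets. The words rose and fell are kept for genes with an adjusted p below 0.05. The number of arrays limits the precision, and since nothing says that the 3 arrays of a group came from separate cultures, the p-values measure the spread between these samples only. In RNA of whole cultures, fewer cells expressing a gene and less RNA per cell cannot be told apart.

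The array medians lay between 10.6 and 12.8 signal units. Parental array 3 stood apart from the other parental arrays. It correlated with them at 0.946 to 0.949 across the tested probe sets and with the resistant arrays at 0.935 to 0.939, against 0.914 to 0.929 for parental arrays 1 and 2. The epithelial markers CDH1, EPCAM, KRT8, KRT18, KRT20 and VIL1 were well above the median on all 6 arrays, whereas the intestinal transcription factors CDX1 and CDX2 had mean levels of 0.517 and 0.319. KRT20 rose 2.97-fold and VIL1 1.74-fold, so these markers of enterocyte differentiation moved with the group. Of the tested epithelial markers 4 of 6 rose and 0 fell (in limma, 4 and 0 at an unadjusted p too), beside 7.37% of all genes that rose. KRT8 and KRT18 were the others that rose, but omitting single arrays gave an adjusted p of up to 0.112 and 0.149 in limma. CDH1 and EPCAM were not past the test. Of the markers of other cell types, 4 of 6 fibroblast, 2 of 5 immune and 3 of 4 endothelial genes lay below the filter, among them PTPRC (levels from 0.0435 to 0.937) and PDGFRB (from 0.0377 to 0.417). LUM read 0.198 to 0.352 on parental and 1.5 to 3.27 on resistant arrays and passed the filter through the resistant arrays only. LYZ, which gut epithelium also makes, rose 1.67-fold. The part of these markers in the results below was not tested.

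Of the 55 genes, 43 were bright enough to be tested, 10 lay below the filter of 1 times the array median, and TDGF1 and BMPR1A had no probe set that reads them alone. In resistant cells 6 of the 43 rose and 5 fell, that is 25.6%, against 12.4% of all 11849 genes tested in the same way (7.37% higher and 5.05% lower). The members were chosen with earlier results of these data known, so their shares here are not an unbiased comparison with all genes. At an unadjusted p below 0.05 in limma, 9 of the 43 were higher and 10 lower. The share of all genes at that threshold was not taken, so this count cannot be read as an excess. The median change over the 43 was -0.13, compared with 0.02 over all genes. BAMBI, TGFBR3, ID2 and DAB2 rose and TGFBI fell by at least 2-fold, 5 of 43, where 3.37% of all genes rose and 2.17% fell by as much (5.54% in all). For 20 of the 43 the 3 resistant arrays did not overlap with the 3 parental arrays, as was so for 35.5% of all genes. Without parental array 3 the 11 calls were kept and 6 were added, which gave 8 risen and 9 fallen (39.5%), but the share of all genes then rose to 32.2%. Leaving out any other array left 5 to 7 calls (11.6% to 16.3%, against 4.18% to 7.49% of all genes).

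**Figure D1:**
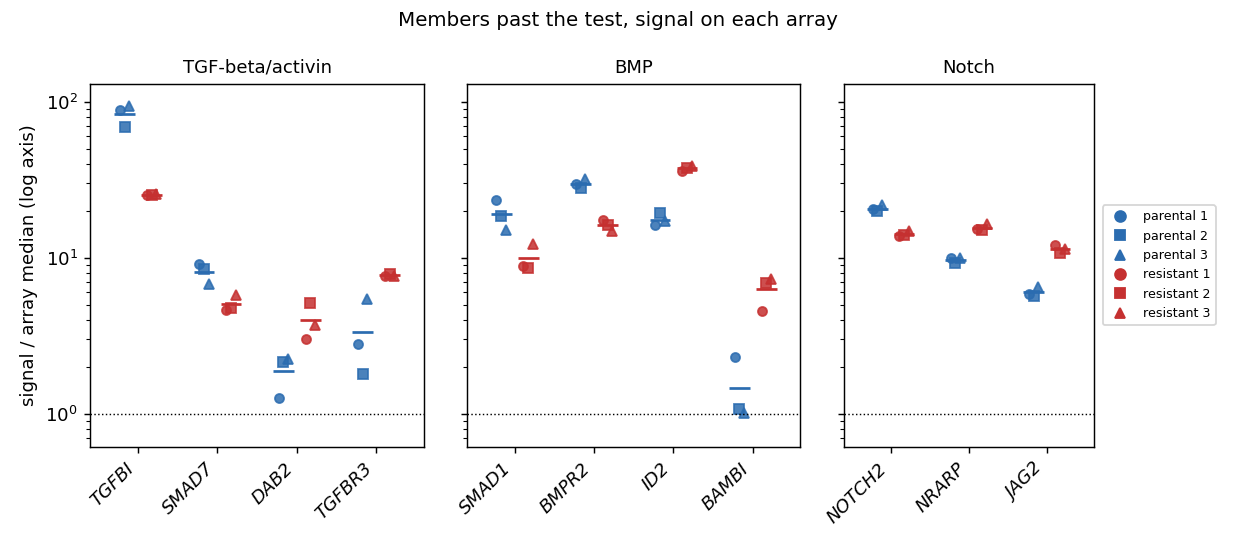
Level (signal divided by the array median, log axis) of the 11 members past the test on each of the 6 arrays, parental in blue and resistant in red, with a marker shape for each replicate number, bars at group means and a dotted line at the array median. The resistant markers lie on the same side of all parental markers for each of the 11 genes, and TGFBI on resistant arrays sits between 25.1 and 25.7.

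Of the 19 tested TGF-beta/activin members 2 rose and 2 fell. That is 21.05% in all, beside 12.4% of all genes (7.37% higher and 5.05% lower). The group held the clearest decrease. TGFBI encodes a secreted matrix protein named for its induction by TGF-beta. Parental arrays 1, 2 and 3 gave levels of 87.8, 69.2 and 93.1, and the resistant arrays 25.4, 25.1 and 25.7. The lowest parental array was thus far above every resistant array, and the resistant arrays were nearly level. TGFBI fell 3.25-fold (-1.70 ± 0.14, adjusted p = 0.000108, limma), was lower under all 19 alternative settings run, and changed by -1.83 to -1.62 across them. Its promoter is shown because it belongs to the member with the smallest adjusted p. The bases are the 250 before the start of the gene in RefSeq (GRCh38.p14, plus strand, chr5:136028738-136028987), written 5′ to 3′, with a GGCGCC motif in capitals that begins 111 bases before the start.
TGFBI: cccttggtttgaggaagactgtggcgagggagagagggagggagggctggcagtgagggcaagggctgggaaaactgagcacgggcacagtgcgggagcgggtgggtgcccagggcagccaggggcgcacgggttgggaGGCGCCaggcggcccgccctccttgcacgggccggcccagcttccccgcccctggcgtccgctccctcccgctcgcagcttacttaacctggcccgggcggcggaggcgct
GGCGCC is a GC-rich sequence that SMAD proteins can bind. It was found in 27.2% of the 81 promoters listed for 48 of the member genes and in 16.4% of all 35116 promoters in the table, whose median GC content was 58% against 66% for the members. The shorter SMAD box CAGAC, searched on both strands as CAGAC or GTCTG, was found in 40.7% and 38% of them. The motifs were counted separately where they overlap, and such a match is a description of the sequence, not evidence of binding.

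Among the receptors, TGFBR3 rose. It encodes betaglycan, a co-receptor that presents TGF-beta and inhibin to the signalling receptors. Its level was 2.81, 1.81 and 5.47 on parental arrays 1 to 3 and 7.68, 7.90 and 7.70 on resistant arrays. The resistant arrays agreed closely and all lay above the parental ones, of which array 3 came nearest. The increase was 2.56-fold (1.36 ± 0.33, adjusted p = 0.0325), and a second probe set gave 1.4 ± 0.24 (adjusted p = 0.00752). For the brightest probe set the call needed all arrays except parental array 3, and omitting another one gave an adjusted p of up to 0.114. The call was also lost with no intensity trend in limma (adjusted p = 0.0954). An equal-variance t-test, the methods' t-test described below, gave an adjusted p of 0.217. The kinase receptors TGFBR1 (0.54 ± 0.20, adjusted p = 0.118) and TGFBR2 (0.27 ± 0.14, adjusted p = 0.261) were not past the test, although by their brightest probe sets the groups did not overlap. TGFBR1 ran from 8.16 to 11.5 on parental and from 11.6 to 16.8 on resistant arrays. A dimmer TGFBR1 probe set went the other way (-0.29 ± 0.30, adjusted p = 0.578) and overlapped between the groups. The activin receptors ACVR1B, ACVR2A and ACVR2B changed by -0.11, -0.51 and -0.07 and overlapped between the groups.

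Of the ligands, TGFB1 ran from 12.0 to 14.1 on parental and from 16.7 to 17.6 on resistant arrays, with no overlap, but its change of 0.39 ± 0.14 was not past the test (adjusted p = 0.112). TGFB2 gave -0.73 ± 0.35 (adjusted p = 0.207), since parental array 3, at 2.23, lay within the resistant range of 1.76 to 2.74 while parental arrays 1 and 2 read 5.53 and 4.81. Without that array TGFB1 was past the test as higher (0.41, adjusted p = 0.0449) and TGFB2 as lower (-1.14, adjusted p = 0.00728). TGFB3 and the activin subunits INHBA and INHBB lay below the filter, with mean levels of 0.642, 0.265 and 0.263. No ligand was past the test on all arrays, that is 0 of 2 tested (1 higher and 0 lower at an unadjusted p in limma). With 12.4% of all genes called, 2 genes are too few to tell this from the share of all genes.

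The inhibitory SMAD7 fell. It is itself induced by TGF-beta and recruits ubiquitin ligases to the receptors. The parental arrays gave levels of 9.09, 8.49 and 6.76, and the resistant ones 4.64, 4.78 and 5.75, so the groups were apart, but the gap between them was smaller than the spread among the parental arrays. The decrease was 1.60-fold (-0.68 ± 0.18, adjusted p = 0.0448) but the call was lost in 11 of the 19 settings, among them the omission of each array other than parental array 3, no filter and no intensity trend (highest adjusted p 0.167). The signal carriers SMAD2 (-0.42 ± 0.16, adjusted p = 0.113) and SMAD3 (0.06, 95% interval from -0.24 to 0.37) and the shared SMAD4 (-0.40 ± 0.24) were not past the test. SMAD2 read 39.7 to 45.4 on parental and 25.6 to 35.5 on resistant arrays, without overlap, but its 5 tested probe sets ran from -0.49 to 0.38. The 3 tested probe sets of SMAD4 ran from -0.40 to 0.85, none past the test.

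Among adaptors and inhibitors, DAB2 rose. DAB2 is an endocytic adaptor that can link TGF-beta receptors to SMADs. The parental arrays gave levels of 1.27, 2.16 and 2.26, and the resistant ones 3.04, 5.15 and 3.73, which is apart but not far above the array median. The increase was 2.11-fold (1.08 ± 0.30, adjusted p = 0.0483), the call nearest to the threshold. Its brightest probe set shares probes with other transcripts, and 3 of 4 tested probe sets rose, the 4 changing by 1.08 to 1.32. The call was lost under 13 of 18 alternative settings, among them quantile normalization (adjusted p = 0.0616) and the omission of an array other than parental array 3. Just outside the threshold was SMURF2, a ubiquitin ligase for SMADs and receptors, at 28.4, 40.2 and 20.0 on parental and 18.2, 14.9 and 17.3 on resistant arrays (-0.76 ± 0.23, adjusted p = 0.0638). It was past the test without parental array 3 (-1.01, adjusted p = 0.00109). FST, the activin-binding follistatin, read 1.16 to 1.59 on parental and 0.568 to 0.745 on resistant arrays and passed the filter through the parental arrays only (-1.17 ± 0.44, adjusted p = 0.117). The SMAD corepressors SKI and SKIL (-0.34 and -0.21) and the SMAD anchor ZFYVE9 (-0.18) overlapped between the groups by their brightest probe sets. A dimmer SKIL probe set read 4.23 to 4.78 on parental and 5.47 to 7.09 on resistant arrays, without overlap. It went the other way but was not past the test (0.44 ± 0.18, adjusted p = 0.143).

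**Figure D2:**
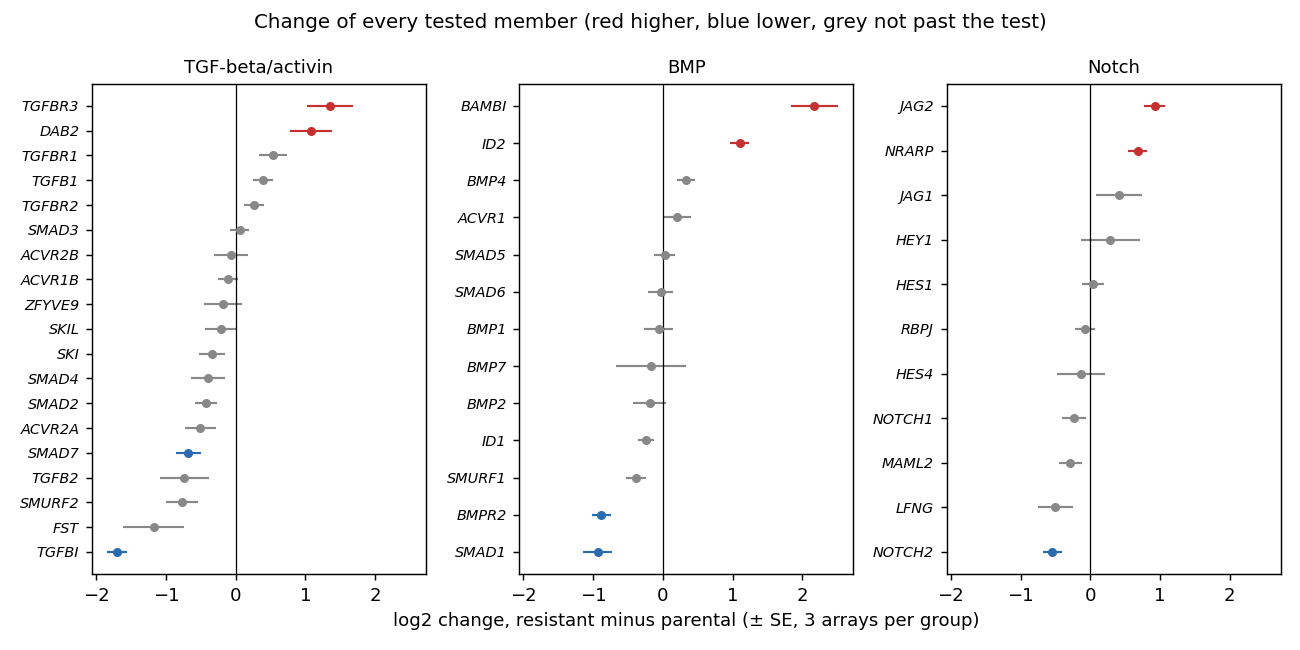
Log2 change (resistant minus parental, ± SE, 3 arrays per group) of each of the 43 tested members, a panel per group, ordered by change, with genes past an adjusted p of 0.05 in red (higher) or blue (lower) and the others in grey. BAMBI (2.17) is highest and TGFBI (-1.70) lowest, and FST (-1.17) lies farthest from 0 among the genes not past the test.

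In the BMP group a decoy receptor and a target rose while a receptor and a SMAD fell, 2 of 13 in each direction. That is 30.8% in all, beside 12.4% of all genes (7.37% higher and 5.05% lower). The median change was -0.06 here, -0.21 in the TGF-beta/activin group and -0.07 in the Notch group. BAMBI encodes a receptor-like membrane protein without a kinase domain that dampens BMP and TGF-beta signals. The parental arrays gave levels of 2.31, 1.08 and 1.02, and the resistant ones 4.58, 6.89 and 7.37. Parental arrays 2 and 3 were close to the array median, parental array 1 was higher, and all resistant arrays were above it. BAMBI rose 4.51-fold (2.17 ± 0.34, adjusted p = 0.00426), ranged from 1.96 to 2.55 with single arrays left out, and lost its call under 1 setting, the methods' t-test (adjusted p = 0.113). Its promoter is shown as that of the member with the largest change. The 250 bases before the start (RefSeq, GRCh38.p14, plus strand, chr10:28677271-28677520) hold 3 GGCGCC motifs and 2 SMAD boxes, in capitals, which begin 209, 196, 189, 181 and 140 bases before the start.
BAMBI: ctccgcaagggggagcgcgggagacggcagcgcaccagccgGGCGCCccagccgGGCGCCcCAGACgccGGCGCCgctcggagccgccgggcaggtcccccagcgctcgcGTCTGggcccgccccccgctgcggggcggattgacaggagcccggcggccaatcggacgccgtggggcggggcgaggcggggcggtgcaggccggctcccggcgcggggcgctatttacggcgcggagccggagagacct
These letters lie in a stretch of 81.2% GC, and the array data do not bear on whether they are used.

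ID2 encodes an inhibitor of helix-loop-helix transcription factors that BMP signals induce in many cells. The parental arrays gave levels of 16.1, 19.3 and 17.3, and the resistant ones 36.0, 37.8 and 38.9, a clear gap with little spread in both groups. ID2 rose 2.14-fold (1.1 ± 0.13, adjusted p = 0.00121), both of its probe sets rose (1.1 and 1.34), and the call held in the 18 settings that could give a value. Its relative ID1, the other target bright enough to test, read 107 to 127 on parental and 90.5 to 110 on resistant arrays and gave -0.24 ± 0.12 (adjusted p = 0.229, 95% interval from -0.51 to 0.03). ID3 and ID4 lay below the filter, at mean levels of at most 1.07 in either group. ID2 rose, while the interval of ID1 leaves out an increase of that size.

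BMPR2 encodes the type II receptor of BMP ligands. It read 29.9, 27.8 and 31.7 in the parental group and 17.5, 16.2 and 14.9 in the resistant group, so that every parental array was well above every resistant one. BMPR2 fell 1.84-fold (-0.88 ± 0.14, adjusted p = 0.00447), and 4 of 5 tested probe sets fell, the 5 changing by -1.44 to -0.55. Averaging all its probe sets gave -0.72 (adjusted p = 0.0623). ACVR1, a type I receptor, overlapped between the groups (0.20 ± 0.20), and BMPR1B lay below the filter on all 6 arrays, from 0.321 to 0.929.

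SMAD1, a carrier of BMP signals, read 23.4, 18.7 and 15.0 on parental and 8.81, 8.62 and 12.3 on resistant arrays. Parental array 3 and resistant array 3 came nearest to each other. SMAD1 fell 1.91-fold (-0.94 ± 0.21, adjusted p = 0.0216) by its brightest probe set, but a second of nearly the same brightness gave -0.21 ± 0.17 (adjusted p = 0.468), and the mean over its probe sets was -0.44 (adjusted p = 0.208). The call was also lost without parental array 1 or 2 or resistant array 1 or 2 (adjusted p from 0.0555 to 0.105). Its partner SMAD5 gave 0.02 (95% interval from -0.30 to 0.35). The inhibitory SMAD6 gave -0.03 (-0.42 to 0.36) by its brightest probe set, but its 3 tested probe sets ran from -0.03 to 0.85. None of them was past the test. A dimmer SMAD6 probe set read 1.57 to 2.37 on parental and 2.68 to 3.76 on resistant arrays, without overlap (0.82 ± 0.26, adjusted p = 0.0757).

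Of the ligands and the protease of the list, 0 of 4 were past the test (1 higher and 0 lower at an unadjusted p in limma). With 12.4% of all genes called, 4 genes are too few to tell this from the share of all genes. BMP4 ran from 53.9 to 71.6 on parental and from 77.6 to 82.1 on resistant arrays, apart from each other, with a change of 0.34 ± 0.13 (adjusted p = 0.13) that was past the test without parental array 3 (0.43, adjusted p = 0.0142). BMP2 (-0.19), BMP7 (-0.17) and the procollagen protease BMP1 (-0.06) overlapped between the groups by their brightest probe sets. The 3 tested probe sets of BMP1 ran from -0.79 to -0.06, none past the test. Those at -0.79 (adjusted p = 0.0843) and -0.43 (adjusted p = 0.22) were lower on every resistant array than on any parental array. The ubiquitin ligase SMURF1 read 15.0 to 15.1 on parental and 10.7 to 12.3 on resistant arrays (-0.39 ± 0.14, adjusted p = 0.111), and the secreted BMP antagonist GREM1 stayed below the median on all arrays, at most 0.721.

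**Figure D3:**
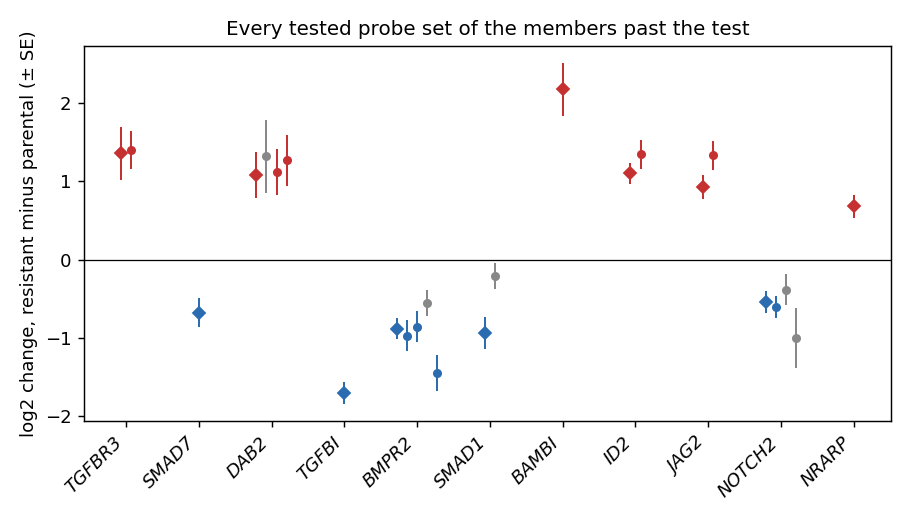
Log2 change (resistant minus parental, ± SE) of every tested probe set of the 11 members past the test, the brightest of a gene drawn as a diamond, in red or blue where its adjusted p was below 0.05 and in grey otherwise. All probe sets of a gene lie on one side of 0, while the second probe set of SMAD1 (-0.21) stands well above its brightest (-0.94).

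In the Notch group a ligand and a feedback target rose and a receptor fell, none of them by 2-fold. That is 3 of 11 tested, or 27.3%, beside 12.4% of all genes (7.37% higher and 5.05% lower). JAG2, a Jagged ligand, read 5.90, 5.73 and 6.52 on parental and 12.1, 10.8 and 11.5 on resistant arrays, far apart for their spread. JAG2 rose 1.89-fold (0.92 ± 0.15, adjusted p = 0.00578), and both probe sets rose (0.92 and 1.33). Its relative JAG1 was spread widely on parental arrays, at 19.2, 25.6 and 8.72, around the resistant levels of 19.6 to 25.5 (0.41 ± 0.33, adjusted p = 0.461). The Delta ligands DLL1 and DLL4 lay below the filter, at mean levels of at most 0.706 in either group.

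NOTCH2 read 20.5, 19.8 and 21.7 on parental and 13.7, 14.1 and 14.8 on resistant arrays, with little spread on both sides. NOTCH2 fell 1.46-fold (-0.54 ± 0.14, adjusted p = 0.0336). Its brightest probe set shares probes with other transcripts, and near-identical copies of part of the gene exist, so the source of this signal is uncertain. A second probe set also fell (-0.60 ± 0.14, adjusted p = 0.024), and the 4 tested ran from -0.999 to -0.384. The call did not survive the omission of an array other than parental array 3 (adjusted p from 0.0579 to 0.149). NOTCH1 gave -0.24 ± 0.17 (adjusted p = 0.415), and NOTCH3 lay below the median on all 6 arrays, from 0.066 to 0.856.

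NRARP, a small protein that Notch induces and that in turn limits the Notch complex, read 9.99, 9.20 and 10.04 on parental and 15.2, 15.2 and 16.4 on resistant arrays. The arrays of each group agreed closely, and NRARP rose 1.60-fold (0.68 ± 0.14, adjusted p = 0.0172). The call rested on all 3 resistant arrays, since omitting one of them gave an adjusted p of up to 0.0854, and it was lost with no further scaling (0.0541), which moved the change to 0.60. The other Notch targets were not past the test. HES1 read 13.7 to 16.95 on parental and 13.9 to 17.7 on resistant arrays, a change of 0.04 with a 95% interval from -0.31 to 0.40. HES4 gave -0.13 ± 0.34, with 38.8 on parental array 1 against 12.3 to 21.3 on the other arrays, and HEY1 gave 0.29 ± 0.42 close to the array median. The promoters of NRARP and HES1 are set side by side because both are Notch targets and only the NRARP change was past the test, a difference between the genes that was not itself tested. The RBPJ motif GTGGGAA, searched on both strands as GTGGGAA or TTCCCAC, begins 85 bases before the start of HES1 and a SMAD box 170 bases before it (RefSeq, GRCh38.p14, plus strand, chr3:194135898-194136147), while the window of NRARP (minus strand, chr9:137302272-137302521) holds a GGCGCC motif 25 bases before the start, all in capitals.
HES1: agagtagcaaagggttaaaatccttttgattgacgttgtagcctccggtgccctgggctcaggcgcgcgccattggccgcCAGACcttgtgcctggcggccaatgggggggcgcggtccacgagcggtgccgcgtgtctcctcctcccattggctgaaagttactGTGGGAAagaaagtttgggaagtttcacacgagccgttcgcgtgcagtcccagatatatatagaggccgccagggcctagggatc
NRARP: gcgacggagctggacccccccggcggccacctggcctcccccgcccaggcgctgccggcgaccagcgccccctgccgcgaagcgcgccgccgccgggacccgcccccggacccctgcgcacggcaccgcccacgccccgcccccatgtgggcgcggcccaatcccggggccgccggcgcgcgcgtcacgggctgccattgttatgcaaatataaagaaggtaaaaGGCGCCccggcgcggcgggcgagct
GTGGGAA was found in 3 of 17 promoters of Notch members, 17.6%, and in 5.43% of all promoters. Its absence from the NRARP window says only that these letters are not in these bases.

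The machinery common to all Notch signals was not past the test. RBPJ read 44.8 to 60.7 on parental and 50.4 to 52.2 on resistant arrays (-0.07 ± 0.14, 95% interval from -0.39 to 0.24). The coactivator MAML2 gave -0.29 ± 0.17 by its brightest probe set, while 1 of its 2 tested probe sets fell (-1.09). LFNG, a sugar transferase that tunes how Notch reads its ligands, ran from 6.40 to 12.96 on parental and from 6.56 to 7.46 on resistant arrays (-0.50 ± 0.25, adjusted p = 0.232), and was past the test without parental array 1 (-0.82, adjusted p = 0.0311).

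Across the 43 tested members the parental arrays differed more among themselves than the resistant arrays did. The SD of the log2 level was larger in the parental group for 31 of 43 (72.1%), as it was for 70.4% of all genes, with medians of 0.227 and 0.152 for parental and resistant members. Parental array 3 was the parental array nearest to the resistant mean for 6 of the 11 members that changed, against 59.2% of all genes that changed.

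Other genes of the 3 pathways, on lists that do not overlap with the members, included some larger changes. Of 29 tested TGF-beta/activin genes 1 rose and 4 fell, of 12 BMP genes 0 rose and 1 fell (3 and 3 at an unadjusted p in limma), and of 24 Notch genes 2 rose and 1 fell. These are 17.2%, 8.33% and 12.5% of the lists, beside 12.4% of all genes, so the BMP and Notch lists lay below or near the share of all genes. The Notch count includes ATOH1, which passed the filter through the resistant arrays only. Median changes were -0.08, -0.14 and -0.08. PMEPA1, a TGF-beta target that sequesters SMADs, read 72.5, 99.7 and 104 in the parental group and 7.03, 9.72 and 9.70 in the resistant group. It fell 10.4-fold (-3.38 ± 0.19, adjusted p = 8.70e-06) and was lower under all 19 settings run. The tested genes entered as targets in the same list were not past the test, namely MMP2 (0.17 ± 0.49), CCN2 (0.38 ± 0.44), CDKN1A (-1.38 ± 0.57, adjusted p = 0.155), CDKN2B (-0.54 ± 0.50), JUNB (0.22 ± 0.15) and KLF10 (-0.18 ± 0.19). Parental array 3 read 7.35 for CDKN1A, against 56.3 and 30.1 on parental arrays 1 and 2 and 7.67 to 10.3 on resistant arrays.

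ITGAV and ITGB8, the chains of an integrin that frees latent TGF-beta, fell 1.54-fold (-0.62 ± 0.11, adjusted p = 0.00834) and 1.47-fold (-0.56 ± 0.15, adjusted p = 0.0414). The ITGAV call was lost without resistant array 1 or 2 (adjusted p = 0.0533 and 0.0569). ITGB8 gave -0.07 when its probe sets were averaged and lost its call without any array but parental array 3. FURIN, the protease that cuts TGF-beta precursors, fell 1.86-fold (-0.90 ± 0.22, adjusted p = 0.0295), a call lost without parental array 1 or 2 or resistant array 1 or 2. ZFYVE16, an endosomal protein that binds SMAD4, rose 15.6-fold. RUNX2, a transcription factor that works with BMP SMADs in bone, read 29.8, 40.5 and 27.8 on parental and 10.3, 13.1 and 15.1 on resistant arrays and fell 2.54-fold (-1.35 ± 0.19, adjusted p = 0.00293). The RUNX2 call was lost under 1 setting, the methods' t-test (adjusted p = 0.0922).

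On the Notch side, HES6 read 1.39, 2.60 and 3.72 in the parental group and 29.8, 31.9 and 31.4 in the resistant group. HES6 is a HES family member that opposes HES1 and promotes differentiation, and it rose 13.1-fold (3.71 ± 0.30, adjusted p = 0.000101). ATOH1, the secretory lineage factor that Notch represses, read 0.631, 0.883 and 1.02 on parental and 2.87, 2.87 and 3.56 on resistant arrays. ATOH1 rose 3.73-fold (1.90 ± 0.31, adjusted p = 0.00553), but its parental mean of 0.844 lay below the filter, which it passed through the resistant arrays only. Both calls ended under the methods' t-test and under no other setting that gave a value (adjusted p = 0.0555 and 0.0605). The ubiquitin ligase DTX4 fell 1.39-fold (-0.48 ± 0.13, adjusted p = 0.0438), a call that omission of an array other than parental array 3 ended. The proteases that cut Notch, ADAM10, ADAM17, PSEN2, NCSTN, APH1A, APH1B and PSENEN, changed by -0.29 to 0.23 and were not past the test.

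**Figure D4:**
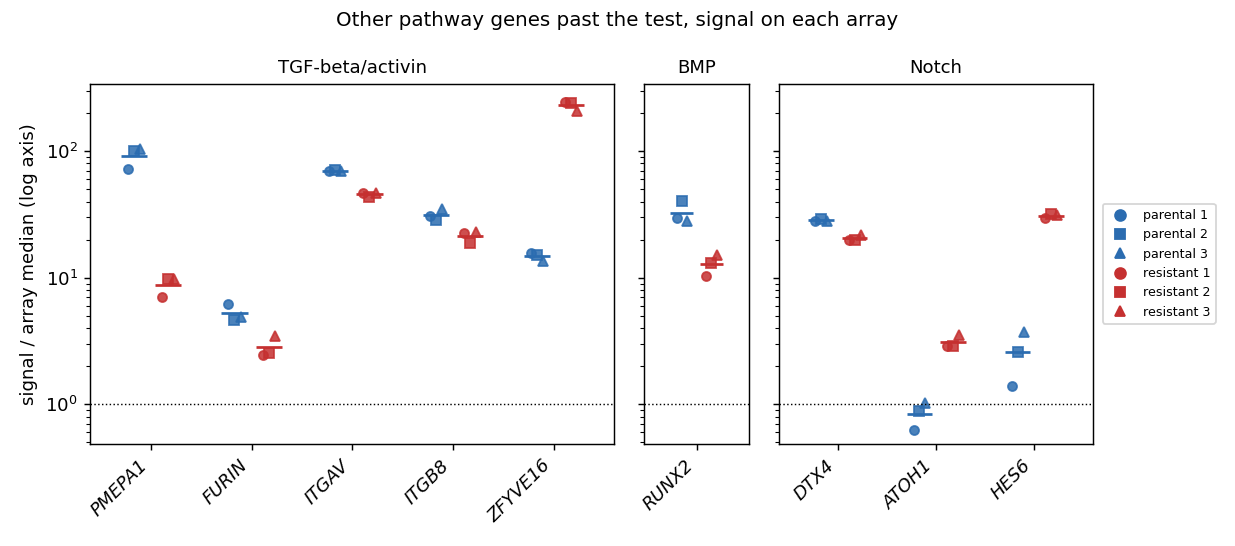
Level (signal divided by the array median, log axis) of the 9 pathway genes outside the members that were past the test, on each of the 6 arrays, with colours, markers and lines as in the plot of the members. PMEPA1 goes from 92.1 to 8.81 and HES6 from 2.57 to 31.0 in group means, and the groups do not overlap for any of the 9 genes.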

How the data were processed

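RNA of 3 parental and 3 resistant Caco2 samples was hybridised to HG U133 Plus 2.0 arrays. The values deposited by the authors are linear signal intensities. The processing notes of the submitters name MAS5, while its version and target signal were not given in the sources used here. Sample titles gave groups and replicate numbers. After 62 control probe sets were dropped, intensities were scaled to the median of their array, zeros were replaced by 0.05 signal units, and log2 was taken. The 26563 probe sets with an average level of 1 or more entered the test.

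Probe sets were named by the platform annotation, with symbols brought to RefSeq (GRCh38.p14) by Entrez number, which succeeded for 41037 of the 41091 with 1 symbol. The brightest probe set over all 6 arrays stood for a gene. limma 3.58.1 in R 4.3.3 compared the groups (lmFit, then eBayes with trend), two-sided, and p-values were adjusted by Benjamini-Hochberg. The fit was tested on simulated data. With 3 arrays a group, exact permutation reaches no p below 0.1 and was left out. The members and lists were chosen with earlier results of these data known. Every member past the test was named with each array's value, and of other pathway genes up to 4 a list with the largest change past it. ITGB8 and the listed genes named without passing the test were chosen after their values were seen. Alternatives changed the normalization, filter, low signals, variance model, choice of probe sets and arrays included, and the closing section gives their effect. One of them was an equal-variance t-test of each probe set with the same adjustment, called the methods' t-test here because the study states a t-test with multiple testing correction.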

Additional observations from a re-analysis of the deposited data

How the results depend on the processing

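Under 19 alternatives, the 11 members that changed kept their call in 150 of 206 refits, lost it in 56 and reversed in 0, and of 590 refits of the other tested members 8 gained a call. ID2 and NOTCH2 could not be given a value without shared-probe and multi-transcript sets, and DAB2 not with the filter at 3 times the median. With single arrays left out, TGF-beta/activin members numbered 0 to 3 higher and 1 to 6 lower, BMP members 2 to 3 and 1 to 2, Notch members 1 to 2 and 0 to 1, and all genes 267 to 2008 and 212 to 1809, the highest of all genes without parental array 3.

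Of 2 TGF-beta/activin members higher, 1 remained by count under quantile normalization, no further scaling, no filter, the filter at 3 times the median, the mean of all probe sets, without shared-probe sets and without shared-probe and multi-transcript sets, and 0 with no intensity trend or the methods' t-test. Of 2 lower, the count was 1 with no filter, the replicate block, the methods' t-test, the mean of all probe sets and the 2-fold threshold. BMP members higher numbered 1 by the methods' t-test and without shared-probe and multi-transcript sets. BMP members lower numbered 1 with no intensity trend and by the methods' t-test, and 0 with the mean of all probe sets and the 2-fold threshold. Notch members higher numbered 1 with no further scaling and 0 with the 2-fold threshold. Notch members lower numbered 0 with no intensity trend, the replicate block, without shared-probe and multi-transcript sets and with the 2-fold threshold. All genes higher and lower numbered 367 and 257 with no intensity trend, 120 and 72 by the methods' t-test, 540 and 336 with the mean of all probe sets, and 399 and 257 with the 2-fold threshold. The causes were not tested, apart from the 2-fold threshold, which leaves out smaller changes by construction.

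For pathway genes that are no members, which were added to the alternatives after the data were seen, TGF-beta/activin genes higher numbered 2 with no intensity trend, and lower 2 with no filter, no intensity trend, the replicate block and the methods' t-test and 1 with the 2-fold threshold. BMP genes higher numbered 1 with the filter at 3 times the median, and lower 2 with no further scaling, 3 with the replicate block and 0 by the methods' t-test. Notch genes higher numbered 1 with the filter at 3 times the median and 0 by the methods' t-test, and lower 0 with no further scaling, no filter, no intensity trend, the replicate block and the 2-fold threshold. With single arrays left out these lists gave 1 to 2 higher and 1 to 10 lower, 0 to 2 and 1 to 2, and 2 and 0 to 5.

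Deviations of same-numbered arrays correlated at -0.018, -0.022 and -0.016, so the values showed no pairing by replicate number. They cannot tell whether same-numbered samples were prepared together. With the replicate block 9 members were called, 6 higher and 3 lower (20.9% against 9.82% of all genes). SMAD7 (adjusted p = 0.0859) and NOTCH2 (0.0798) lost their calls, so that TGF-beta/activin members lower numbered 1 and Notch members lower 0.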
